A study of Mus musculus with 4 samples.

Results

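Ebf1, Pax5, Cd79a, Cd79b, Vpreb1, Vpreb3, Igll1 and Blnk, the pre-B receptor chains and B lineage factors described here, were followed through every probe set that the platform annotation assigns to exactly 1 of them. This gave 14 probe sets for the 8 genes, out of 45037 probe sets and 18193 named genes on the array. The samples were lineage-negative, cKit+, Sca1+ (LSK) cells, the progenitor fraction that holds haematopoietic stem cells, taken from mouse foetal liver at E13.5. All embryos were female and carried GFP at 1 allele of Hes1 (genotype Hes1 GFP/WT), a repressor induced by Notch signalling. GFP set the groups, HES1-GFP positive (1 array) and HES1-GFP negative (3 arrays). From each sample 5 ng of RNA was amplified before hybridization to an Affymetrix array. Nothing in the labels ties the negative samples to separate litters or sorts, so p-values measure only the spread between these arrays, which may be partly technical.

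B cells arise from progenitors in which Ebf1 and E proteins switch on B lineage genes and Pax5 then fixes the choice of lineage. Before a light chain is made, the immunoglobulin heavy chain is shown at the surface with a surrogate light chain built from the Vpreb and Igll1 (lambda 5) proteins. Cd79a and Cd79b carry the signal of this pre-B receptor into the cell, and Blnk passes it on to downstream enzymes. In the mouse embryo the foetal liver is a main site of early B cell formation.

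RefSeq promoters (build GRCm38.p6) were found for 7 of the 8 members. The members below are those with a match to CAGGTG. Their 250 bases before the RefSeq gene start are printed 5' to 3' on the strand of the gene. Capitals mark CAGGTG (an E-box form bound by E proteins), CTCAAGGG (a form close to the core bound by Ebf1) and CCCNNGGG (the palindromic core bound by Ebf1), each on either strand.
Cd79a, chr7:24897247-24897496, plus strand: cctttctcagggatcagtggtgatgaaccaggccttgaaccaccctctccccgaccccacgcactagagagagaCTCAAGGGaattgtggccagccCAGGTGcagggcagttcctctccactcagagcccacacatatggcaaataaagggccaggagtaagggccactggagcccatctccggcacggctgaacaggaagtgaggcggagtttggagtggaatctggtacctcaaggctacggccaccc
Vpreb1, chr16:16869256-16869505, minus strand: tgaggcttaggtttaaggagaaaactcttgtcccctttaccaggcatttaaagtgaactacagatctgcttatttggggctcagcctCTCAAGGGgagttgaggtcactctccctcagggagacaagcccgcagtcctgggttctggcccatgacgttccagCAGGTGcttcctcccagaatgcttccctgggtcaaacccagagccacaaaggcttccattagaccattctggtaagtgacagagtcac
Igll1, chr16:16863986-16864235, minus strand: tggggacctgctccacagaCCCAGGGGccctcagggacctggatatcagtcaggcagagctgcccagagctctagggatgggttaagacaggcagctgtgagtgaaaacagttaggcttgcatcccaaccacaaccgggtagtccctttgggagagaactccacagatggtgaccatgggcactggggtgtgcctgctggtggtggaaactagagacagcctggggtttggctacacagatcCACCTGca
Blnk, chr19:40994222-40994471, minus strand: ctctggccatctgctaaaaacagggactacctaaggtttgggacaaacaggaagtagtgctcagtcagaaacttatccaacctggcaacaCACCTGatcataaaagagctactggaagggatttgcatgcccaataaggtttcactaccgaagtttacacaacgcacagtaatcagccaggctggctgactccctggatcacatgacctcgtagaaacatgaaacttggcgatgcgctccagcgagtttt

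CAGGTG was found upstream of Cd79a, Vpreb1, Igll1 and Blnk, in 4 of the 8 member promoters (Ebf1 has 2), and 17.2% of 32851 promoters in the table hold it. CTCAAGGG was found upstream of Cd79a, at -176 to -169 from the gene start, and upstream of Vpreb1, at -163 to -156, against 1.01% of all promoters. This motif was chosen after the sequences were seen. CCCNNGGG was found upstream of Igll1 alone among the members, against 11.8% of all promoters. A longer and stricter form of this palindrome was found in 0 of the 8 member promoters, against 0.779% of all. TGGGAA, the core bound by the Notch effector RBPJ, was found in 1 of the Ebf1 promoters, against 21.6% of all. A match describes the letters only. Igll1 and Vpreb1 lie next to each other on chromosome 16, with 0 annotated genes between them.

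Hes1, the gene that carries the GFP, did not follow the labels in its RNA, read here by probe set 1418102_at. Hes1 was at 6.57 on the log2 intensity scale in the array labelled positive, against 8.78, 9.07 and 6.70 in negative replicates 1, 2 and 3. The array labelled positive was the lowest of the 4, and negative replicate 3 lay next to it. The Hes1 difference was -1.62 ± 1.10 log2 units (limma SE) from the negative mean and -0.13 from negative replicate 3. GFP itself was not read from these values. Directions below are therefore those of the array labelled HES1-GFP positive against the arrays labelled HES1-GFP negative. Negative replicate 3 stood apart from the other 2 negative arrays over all probe sets as well. The root mean square log2 difference was 0.58 between the array labelled positive and negative replicate 3, 0.68 between negative replicates 1 and 2, and 0.73 to 0.74 for the other pairs. Kit, the stem cell factor receptor used in the sort, stood at 10.13 in the array labelled positive, against 9.90, 9.72 and 9.68 in the negative arrays. With 4 arrays, precision is limited throughout, and the smallest one-sided p that an exact permutation could reach is 0.25.

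The B lineage and pre-B receptor genes were low in 2 arrays, the one labelled positive and negative replicate 3, and high in negative replicates 1 and 2. The median log2 intensity over the 14 probe sets was 6.72 in the array labelled positive, against 10.22, 9.80 and 6.51 in negative replicates 1, 2 and 3. Set against the range of the 3 negative arrays, 7 of the 14 probe sets had the array labelled positive below it, 6 within it and 1 above it. Over all probe sets these shares were 23.6% below, 53.1% within and 23.2% above. Only 1 member probe set, of Ebf1, lay at least 1 log2 unit below the range (0.631% of all probe sets), and 0 lay that far above it (1.35%). The median log2 difference between the array labelled positive and the mean of the negative arrays was -1.75 over the members and -0.01 over all probe sets. In bulk samples, fewer cells of a type and less RNA per cell cannot be told apart.

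No member probe set passed limma's test of positive against negative. It called 0 of the 14 probe sets lower and 0 higher at an adjusted p under 0.05, as it did for 0% of all 45037. The limma adjusted p of every member was 1.00, and the unadjusted p ran from 0.0903 for Blnk to 0.771 for an Igll1 probe set. At an unadjusted p under 0.05, limma gave 0 members and 2032 of all probe sets, of which 642 (1.43% of all) were lower in the array labelled positive. The spread between the negative arrays was wide for the members, with a median SD of 1.43 log2 units, against 0.25 over all probe sets. Without negative replicate 3, the median difference of the members was -2.52 and 13 of 14 probe sets lay below the 2 remaining negative arrays, as did 32.5% of all probe sets. Without replicate 1 or 2 the median was -1.30 or -1.38, and 7 members lay below in each, against 34.5% and 31% of all probe sets.

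**Figure D1:**
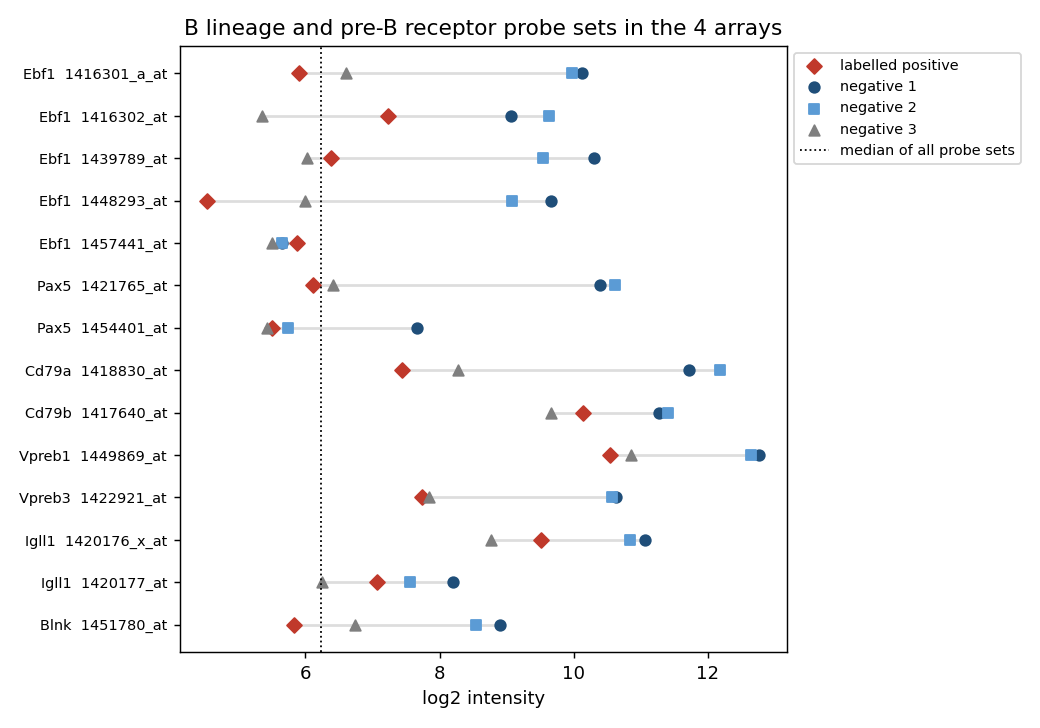
Log2 intensity (x axis) of each member probe set (rows) in the array labelled HES1-GFP positive (red diamonds) and in the 3 arrays labelled HES1-GFP negative, with the median level of all probe sets dotted at 6.23. In most rows the array labelled positive and negative replicate 3 sit together at the left and negative replicates 1 and 2 at the right, while the Ebf1 probe set 1457441_at stays near 5.5 to 5.9 in all 4 arrays.

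Ebf1, the transcription factor that starts the B lineage programme, had 5 probe sets. Probe set 1416301_a_at stood at 5.90 in the array labelled positive, against 10.13, 9.97 and 6.61 in negative replicates 1, 2 and 3. Probe set 1448293_at stood at 4.54 in the array labelled positive, against 9.66, 9.09 and 5.997. In both, the array labelled positive was the lowest of the 4, and the differences from the negative mean were -3.01 ± 1.68 and -3.71 ± 1.66 log2 units (limma SE, 1 against 3 arrays). Probe set 1439789_at stood at 6.38 in the array labelled positive, against 10.30, 9.54 and 6.02 in the negative arrays. Probe set 1416302_at stood at 7.23 in the array labelled positive, against 9.07, 9.63 and 5.35. In these the lowest array was negative replicate 3, by 0.35 and 1.88 log2 units. The remaining probe set, 1457441_at, stood at 5.88 in the array labelled positive, against 5.64, 5.65 and 5.49, nearly flat and below the median of all probe sets. The 4 brighter probe sets thus share their high arrays, and they place the array labelled positive differently against negative replicate 3.

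Pax5, the factor that commits cells to the B lineage, had 2 probe sets. Probe set 1421765_at stood at 6.11 in the array labelled positive, against 10.39, 10.62 and 6.41 in negative replicates 1, 2 and 3. Its difference from the negative mean was -3.03 ± 1.99 log2 units (limma SE), or -4.39 without negative replicate 3. The array labelled positive differed from negative replicate 3 by -0.30 log2 units here, while negative replicate 3 differed from negative replicates 1 and 2 by -3.98 and -4.21. Probe set 1454401_at, below the median level on average, stood at 5.50 in the array labelled positive, against 7.66, 5.74 and 5.43. Only negative replicate 1 was high in it, so that the Pax5 probe sets disagree on negative replicate 2.

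The signalling chains of the receptor differed in how far apart the arrays lay. Cd79a, or Ig-alpha, stood at 7.44 in the array labelled positive, against 11.72, 12.19 and 8.28 in negative replicates 1, 2 and 3. The difference from the negative mean was -3.29 ± 1.80 log2 units (limma SE), and that from negative replicate 3 alone was -0.84. Cd79b, or Ig-beta, its partner chain, stood at 10.14 in the array labelled positive, against 11.27, 11.41 and 9.66. The array labelled positive was inside the negative range for Cd79b, with a difference of -0.64 ± 0.84 log2 units (limma SE). It was -1.20 without negative replicate 3, -0.39 without replicate 1 and -0.32 without replicate 2. Blnk, the adaptor that links the receptor's kinases to their targets, stood at 5.84 in the array labelled positive, against 8.90, 8.55 and 6.75. For Blnk the array labelled positive was the lowest of the 4. It differed by -0.91 log2 units from negative replicate 3 and by -2.23 ± 0.99 (limma SE) from the negative mean.

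The surrogate light chain genes showed the same pair of high arrays. Vpreb1, which forms the variable-like part of the surrogate light chain, stood at 10.54 in the array labelled positive, against 12.77, 12.64 and 10.85 in negative replicates 1, 2 and 3. Its difference from the negative mean was -1.54 ± 0.92 log2 units (limma SE). Igll1, which forms the constant-like part, stood at 9.51 in the array labelled positive, against 11.07, 10.84 and 8.77 by probe set 1420176_x_at. By its other probe set, 1420177_at, it stood at 7.07 in the array labelled positive, against 8.20, 7.56 and 6.24. Both Igll1 probe sets put the array labelled positive inside the negative range, 0.74 and 0.82 log2 units above negative replicate 3. Vpreb3, a Vpreb-related protein that binds immunoglobulin chains inside the cell, stood at 7.74 in the array labelled positive, against 10.63, 10.58 and 7.84. There the array labelled positive differed from negative replicate 3 by -0.11 log2 units and from the negative mean by -1.95 ± 1.35 (limma SE). A probe set annotated to both Vpreb1 and Vpreb2, near-identical genes, is no member and stood at 8.39 in the array labelled positive, against 9.67, 10.05 and 8.52. This shared probe set had the same low arrays as Vpreb1, whose own probes may also bind Vpreb2 transcripts.

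The arrays were then set side by side in pairs over the 14 probe sets. Against negative replicate 1, the array labelled positive was at least 1 log2 unit lower in 13 (6.77% of all probe sets), and against negative replicate 2 in 11 (6.4%). Against negative replicate 3 it was that much lower in 1 (4.04%) and that much higher in 1 (4.45%), both of Ebf1, with a median difference of -0.02. Within the negative label, replicate 3 was at least 1 log2 unit below replicate 1 in 13 (6.82%) and below replicate 2 in 12 (6.61%), while replicate 1 was that far below replicate 2 in 0 (5.57%) and above it in 1 (6.08%). The members thus differed about as widely between arrays of the negative label as between the labels. Negative replicate 3 and the array labelled positive were both at least 1 log2 unit below both other arrays in 11 of 14 probe sets, as in 1.45% of all, a count chosen after the values were seen. These comparisons share arrays and are given as descriptions without a test.

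**Figure D2:**
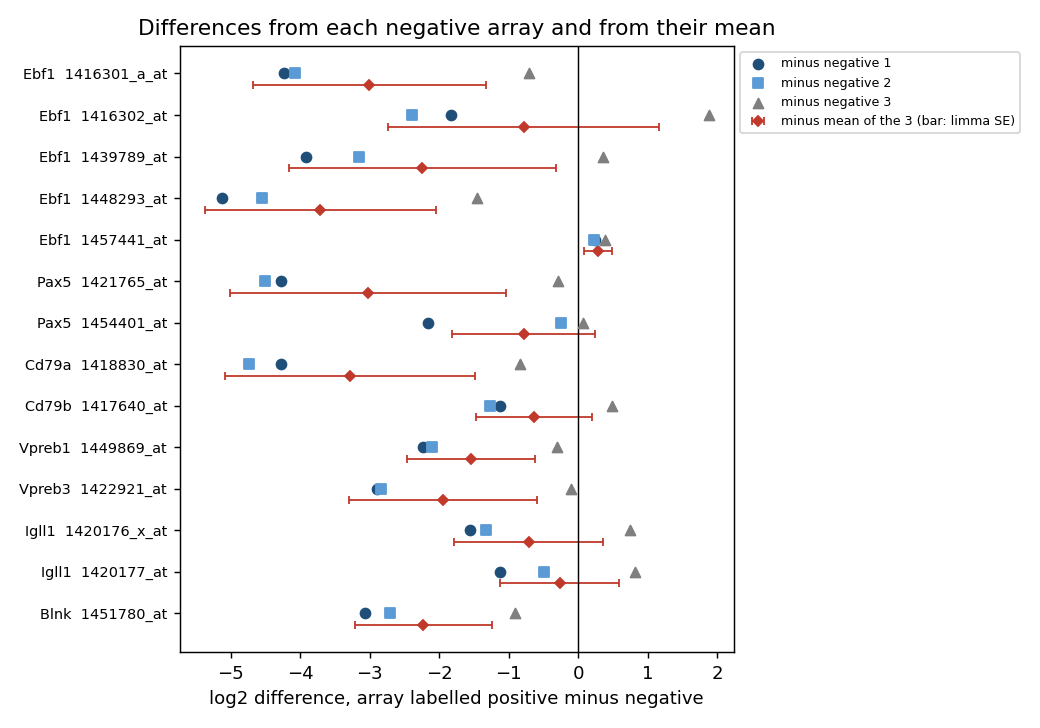
Log2 difference (x axis) between the array labelled HES1-GFP positive and each negative array, for each member probe set (rows), with the difference from the mean of the 3 negative arrays and its limma SE as red diamonds and bars. Differences from negative replicates 1 and 2 run as low as -5.12, whereas those from negative replicate 3 run from -1.46 to 1.88 on both sides of 0.

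With 1 probe set a gene, the 8 members shared their high and low arrays, but neither the size of the gap nor the order within each pair. The lowest array was the one labelled positive for 6 of them and negative replicate 3 for Cd79b and Igll1. By the probe set of the highest mean, the mean profile of the 8 members relative to each gene's average was -1.54 log2 units in the array labelled positive, against 1.42, 1.41 and -1.29 in negative replicates 1, 2 and 3. Vpreb3 lay closest to this profile, with a root mean square difference of 0.05 log2 units over the 4 arrays, and Cd79b lay furthest, with 0.74. Pax5, Cd79a and Ebf1 spread more widely than the mean profile, and Cd79b and Igll1 less widely. Among 16307 other named genes, for which the median difference from the profile was 1.45, the 10 nearest were Mzb1, Trbv1, Sdc4, Il18r1, Tubb2b, Igf1, Dnase1l3, Lyve1, Clec4n and Thy1, at 0.09 to 0.21. Mzb1, an endoplasmic reticulum protein of B lineage and plasmacytoid dendritic cells, was the nearest, at 8.42 in the array labelled positive, against 11.20, 11.36 and 8.50. Trbv1, a T cell receptor segment, was almost as near, at 0.090 from the profile against 0.086 for Mzb1. Lyve1 stands in the endothelial list below, so the nearest genes were not all of the B lineage. Hes1 itself was at 0.29 from the profile. Likeness over 4 arrays is a description, in which all genes share the same RNA samples.

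**Figure D3:**
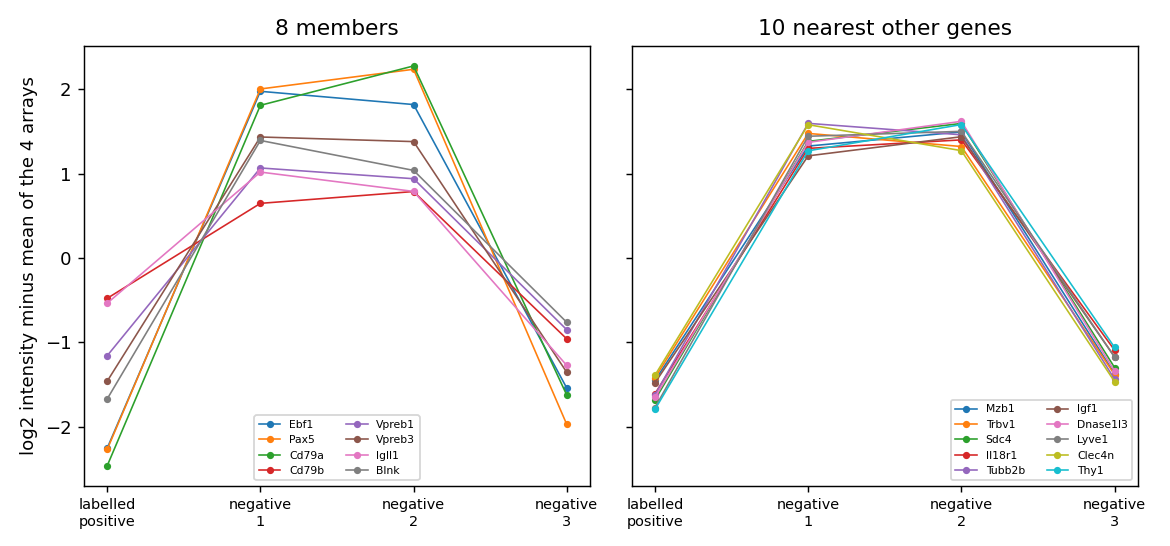
Log2 intensity minus the gene's mean over the 4 arrays (y axis) for the array labelled HES1-GFP positive and negative replicates 1, 2 and 3 (x axis), for the 8 members on the left and the 10 genes nearest to their mean profile on the right. Lines join the arrays of 1 gene for reading only, and the members fan out in size while their low and high arrays stay the same.

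The other genes of the pathway were read from lists, each gene by its probe set of highest mean. Of 17 measured genes of receptor signalling, 7 lay below the negative range, 8 within it and 2 above it. Their median difference was -0.30 log2 units, and limma called 0. Over all genes the share below the range was 23% and that above it 23.6%. Prkcb, a protein kinase C used by B cell receptors, stood at 7.90 in the array labelled positive, against 10.56, 10.70 and 9.24 in negative replicates 1, 2 and 3. It differed by -1.34 log2 units from the lowest negative array. Inpp5d, the lipid phosphatase SHIP-1, was at 9.26 against 10.10, 10.19 and 9.60, and the adaptor Dok3 at 8.91 against 9.23, 9.51 and 9.66. The Src family kinase Fyn stood at 8.88 in the array labelled positive, against 9.66, 9.36 and 9.23. For Dok3, negative replicate 3 was the highest array, so that the genes of this list did not share the members' low arrays throughout. Syk and Plcg2, the kinase and phospholipase on either side of Blnk in the pathway, were named after their values were seen. Syk stood at 9.89 in the array labelled positive, against 10.62, 11.02 and 9.88, and Plcg2 was at 10.84, against 11.18, 11.25 and 10.97.

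Of 20 transcription regulators of the B lineage, 5 lay below the negative range, 13 within it and 2 above it. Their median difference was -0.24 log2 units, with 0 limma calls. The share of all genes below the range was 23%, so the count of regulators below was near it, and 23.6% lay above. Spib, an Ets factor of B and dendritic cells, stood at 8.43 in the array labelled positive, against 10.15, 10.60 and 8.60 in negative replicates 1, 2 and 3. Irf4, which acts downstream of the pre-B receptor, was at 6.79 against 8.98, 8.72 and 6.91. Lef1, a Wnt effector of B progenitors, stood at 7.17 against 8.44, 8.84 and 7.45, and Bcl11a, needed for lymphoid development, at 11.55 against 12.31, 12.38 and 11.74. In all 4 genes the array labelled positive was the lowest and negative replicate 3 came next. These 4 were named by the size of their moderated t, which favours genes with the array labelled positive at an extreme. Ikzf3, Foxo1 and Pou2af1 had the same high arrays, but negative replicate 3 was their lowest. Ikzf3 stood at 7.09 in the array labelled positive, against 9.61, 10.17 and 6.87. Without negative replicate 3, 17 of the 20 regulators lay below the remaining negative arrays, with a median of -0.41, against 31.4% of all genes below. Without replicate 1 or 2 the median was -0.13 or -0.14, with 5 below in each, against 34.2% and 30.3% of all genes. Tcf3, which encodes the E2A proteins that act with Ebf1, was named after its values were seen, at 10.29 in the array labelled positive against 10.35, 10.91 and 9.92, inside the negative range.

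Of 18 measured targets of Ebf1 and Pax5 and surface genes of B cells, 6 lay below, 9 within and 3 above the negative range. Their median difference was -0.39 log2 units, with 0 limma calls. Over all genes, 23% lay below the range and 23.6% above it. Cd72, a B cell co-receptor, stood at 7.22 in the array labelled positive, against 8.50, 8.07 and 8.01 in negative replicates 1, 2 and 3, and so stood below all 3. Ighm, the mu heavy chain that pairs with the surrogate light chain, was at 9.51 against 10.63, 11.34 and 10.22. Cd200, a surface glycoprotein, ran the other way, at 7.09 in the array labelled positive against 5.87, 5.46 and 4.43. Ms4a1, which encodes CD20 of later B cells, was dim throughout, at 4.06 in the array labelled positive against 3.63, 3.34 and 3.73. Cr2, Fcer2a and Cd22, receptors of mature B cells named after their values were seen, differed by -0.08, -0.004 and 0.08 log2 units from the negative mean. Ly6d, Slamf6 and Pou2af1, also named after their values were seen, had the members' high and low arrays. Ly6d stood at 7.66 in the array labelled positive, against 11.81, 11.63 and 7.63. Without negative replicate 3, 12 of the 18 lay below the remaining negative arrays, against 31.4% of all genes. Without replicate 1 or 2 it was 7 in each, against 34.2% and 30.3% of all genes.

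Of 10 measured genes of recombination and early lymphoid cells, 4 lay below, 4 within and 2 above the negative range. Their median difference was -0.75 log2 units, with 0 limma calls. Among all genes, 23% lay below the range and 23.6% above it. Il7r, the interleukin 7 receptor on which mouse B cell progenitors depend, stood at 8.39 in the array labelled positive, against 12.11, 11.75 and 8.89 in negative replicates 1, 2 and 3. Flt3, a cytokine receptor of early lymphoid and multipotent progenitors, was at 11.07 against 12.12, 11.95 and 11.63. In both, the array labelled positive was the lowest, and for Flt3 negative replicate 3 lay nearer the other negative arrays. Xrcc5, a subunit of the Ku complex of DNA end joining, was at 8.60 against 7.91, 8.36 and 8.02, and the ligase Lig4 at 6.85 against 4.28, 6.59 and 3.64, the array labelled positive being the highest in both. Rag1, the recombinase chain, was named after its values were seen, at 7.32 in the array labelled positive against 11.85, 11.54 and 7.20. Without negative replicate 3, 7 of the 10 lay below the remaining negative arrays, against 31.4% of all genes, and the median was -0.95. Without replicate 1 or 2 the median was -0.46 or -0.45, with 4 or 5 below, against 34.2% and 30.3% of all genes.

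**Figure D4:**
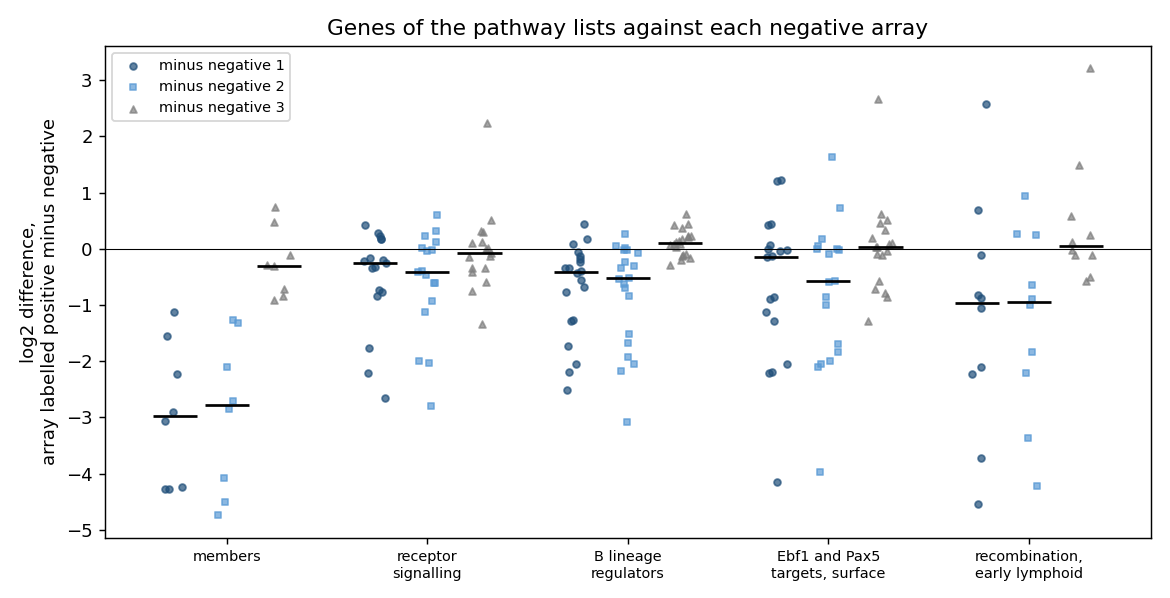
Log2 difference (y axis) between the array labelled HES1-GFP positive and each of the 3 negative arrays, for every gene (points) of the members and of the 4 pathway lists (x axis), with medians as black bars. The medians against negative replicate 3 lie between -0.30 and 0.11, and those of the members against negative replicates 1 and 2 are -2.98 and -2.78.

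By their summed intensity, markers of several other cell types were high in the same arrays as the members, and neutrophil genes in the other arrays. Their part in the member values was not tested. The summed linear intensity of the 8 members was 3923 in the array labelled positive, against 19495, 20087 and 3923 in negative replicates 1, 2 and 3. In the array labelled positive and negative replicate 3, Vpreb1, Cd79b and Igll1 made up most of this sum. Equal sums there hide differences in both directions, with Vpreb1 at 1492 and 1847 and Cd79b at 1128 and 808. The sum of 12 macrophage genes was 7384 in the array labelled positive, against 33886, 32546 and 8278. Of these, 7 genes lay below the negative range, as did 23% of all genes. The sum of 7 plasmacytoid dendritic cell genes was 4881 against 12602, 12295 and 4932, with 3 below, and 4 of the 7 (Ccr9, Tcf4, Spib and Ly6d) also stand in the B lineage or early lymphoid lists above. The sum of 9 T and NK cell genes was 902 against 2386, 2327 and 868, with 4 below, and that of 9 endothelial genes was 1167 against 4115, 3454 and 1722, with 6 below. The endothelial genes did not all share this pattern. Emcn and Tie1 were highest in negative replicate 3, Tek was highest in the array labelled positive, and Esam was low only in the array labelled positive. Among the T and NK cell genes, Gata3, Bcl11b and Cd3g shared the pattern. Cd3d was highest in negative replicate 3, Cd8a was high only in negative replicate 2, and Zap70 and Ncr1 were nearly flat. Cd4, the brightest of that list, was at 9.02 on the log2 scale in the array labelled positive, against 9.82, 9.17 and 8.87. The sum of 8 neutrophil genes was 76003 in the array labelled positive, against 41646, 43492 and 75244. Of these, 6 lay above the range, as did 23.6% of all genes. No marker is at 0 on an array, and the defining T cell markers Cd3d and Cd3e and the NK cell marker Ncr1 were below the median level of all probe sets, as was Cd163 among the macrophage genes.

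The sum of 8 mature B and plasma cell genes was 1794 in the array labelled positive, against 1897, 2108 and 1620 in negative replicates 1, 2 and 3, with 1 gene below the range, and 5 of the 8, among them Ms4a1 and Jchain, were below the median level. Of 8 LSK and stem cell genes, 5 lay above the negative range and 1 below. Over all genes, 23.6% lay above the range and 23% below it. The 5 genes above lay 0.05 to 0.23 log2 units from the range. The sums of the 8 LSK and stem cell genes were 12045 in the array labelled positive against 12785, 10821 and 11418. The sums of 6 erythroid genes were 20762 against 17712, 18291 and 21084, and those of 8 hepatoblast genes were 3303 against 2586, 1908 and 3168. These lists spanned less than the members did between arrays.

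**Figure D5:**
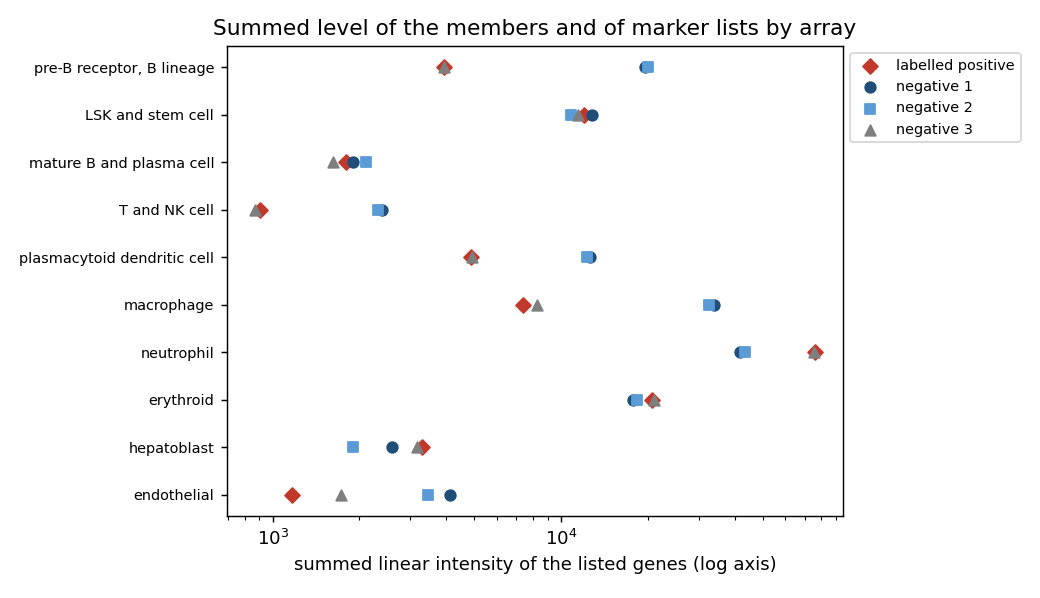
Summed linear intensity (log x axis) of the 8 members and of 9 marker lists (rows) in the array labelled HES1-GFP positive (red diamonds) and in the 3 arrays labelled HES1-GFP negative. The array labelled positive and negative replicate 3 coincide at 3923 for the members and lie together for the macrophage, plasmacytoid dendritic, T and NK and neutrophil lists, with neutrophil genes on the opposite side.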

How the data were processed

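The authors deposited linear intensities, 1 per probe set and array, made with RMA per the submitters' processing notes. They run from 4.27 to 25988 outside control probe sets. RMA corrects background, equalizes the arrays' distributions and summarizes each probe set. For the version, nothing is given in the sources used here. The linear scale follows from the values, as do array medians of 74.7 to 76.1. Scanner files and detection calls were not used here, and equalized values hide any difference in total RNA per cell.

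Intensities were turned into log2 values without a pseudocount. Of 45101 probe sets, 64 controls were left out. Of the rest, 34945 carried 1 gene symbol, 932 several and 9160 none, and 34741 matched the RefSeq gene table (GRCm38.p6) by gene ID. All 45037 were fitted with limma 3.58.1 (R 4.3.3, lmFit and eBayes, two-sided) as positive minus negative, at a Benjamini-Hochberg adjusted p under 0.05. Only the 3 negative arrays inform the spread (2 residual degrees of freedom), and the single positive array is taken to vary as they do. The fit was tested on simulated data. Named list genes are up to 4 per list, by absolute moderated t, and the genes of nearest profile are the 10 with the smallest root mean square difference, unnamed clones and predicted genes left out. The members and lists were chosen with earlier results of these data known. The 9 alternatives changed normalization, pseudocount, filter, variance model, probe sets per gene and the negative arrays used.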

Additional observations from a re-analysis of the deposited data

How the results depend on the processing

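No paired analysis was possible because the labelled groups share only replicate number 1. Under the 9 alternatives limma called 0 of all features tested and 0 members, and the median member difference stayed negative, from -2.52 to -1.30. Leaving out 1 negative array at a time, that median ran from -2.52 (without replicate 3) to -1.30, the member probe sets below the range from 7 to 13, and those at least 1 log2 unit below from 1 to 11. The genes below the range ran from 7 to 11 for receptor signalling, from 5 to 17 for B lineage regulators, from 7 to 12 for Ebf1 and Pax5 targets and surface genes, and from 4 to 7 for early lymphoid genes. In each case the highest count came without negative replicate 3. Of all genes, 34.2%, 30.3% and 31.4% lay below without replicates 1, 2 and 3. Leaving out replicate 1 or 2 also left 2 arrays, and the members below stayed at 7. With 1 probe set a gene, or their mean, 0 members lay at least 1 log2 unit below the range. With the mean, 10 regulators and 2 early lymphoid genes lay below it. The difference of Igll1 (1420177_at) turned to 0.16 without negative replicate 1 and was -0.81 without replicate 3, and that of Ebf1 (1416302_at) turned to 0.020 without negative replicate 2 and was -2.12 without replicate 3. Other members moved as well, among them Igll1 (1420176_x_at) from -1.44 to -0.29 and Ebf1 (1439789_at) from -3.54 to -1.40. Pax5 ran from -1.21 to -0.09 (1454401_at) and from -4.39 to -2.29 (1421765_at). The ranges were -1.20 to -0.32 for Cd79b, -4.51 to -2.56 for Cd79a and -2.87 to -1.47 for Vpreb3. Over the 9 alternatives, the list medians ran from -0.38 to -0.23 for receptor signalling and from -0.41 to -0.13 for regulators. They ran from -0.68 to -0.32 for targets and surface genes, and from -0.95 to -0.45 for early lymphoid genes. For targets and surface genes, the value of -0.68 came from the filter that dropped the dimmer probe sets. Leaving out 1 negative array at a time gave -0.39 to -0.32 for this list. The mean over the probe sets of Ebf1 was -1.89 and over those of Pax5 -1.91. With 1 array in a group and no detection calls, dim probe sets cannot be told from background.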
